A study of Mus musculus with 8 samples.

Results

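The transcripts described here are 81 long non-coding RNAs from outside a set of left-out rows, listed below, that were lower in both comparisons in which the genotype differs at the maternal copy of Gtl2. They were drawn from a table of 29158 long non-coding transcripts measured in whole mouse embryos, of which 6181 reached 0.5 FPKM in at least 2 columns. FPKM is the number of sequenced fragments scaled to the length of the transcript and to the size of the library, so levels of different transcripts can be set side by side. Members were chosen by these measured values: a row was taken when log2(FPKM + 0.5) was lower by 1 or more, which is 2-fold on that scale, both in MKI than in WT and in HOMO than in PKI. These 2 comparisons share no column. The rows left out were those with identifiers MSTRG.25175 to MSTRG.25179 and 7 Ensembl transcripts, 50 rows in all, of which 17 reached the level filter and 16 were lower in both pairs.

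In HOMO embryos both parental copies of the Dlk1-Dio3 imprinted domain carried 3 polyadenylation cassettes in the promoter of Gtl2, placed there by Easi-CRISPR. In MKI embryos the insertion came from the mother, in PKI embryos from the father, and WT embryos carried none. The design text gives embryonic day 12.5 for all, while the sample titles put HOMO, MKI and PKI embryos fractions of a day later than WT, each genotype with its own day. The labels name 2 samples per genotype, 8 in all, but each table has 1 column per genotype, so no spread within a genotype can be given and no difference was tested. The sources used here do not give the strain, the sex of the embryos or the number of founder animals.

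Long non-coding RNAs are transcripts without a protein product, often spliced and polyadenylated like messenger RNA and usually of low abundance. At an imprinted gene the copy inherited from one parent is read and the other is silent. Gtl2, also called Meg3, opens a chain of long RNAs read from the maternal copy of the Dlk1-Dio3 domain, and a polyadenylation cassette ends a transcript early. The comparisons of MKI with WT and of HOMO with PKI therefore ask which RNAs go with loss of that maternal chain on 2 paternal backgrounds. Of the 81 members 29 carry an Ensembl transcript identifier and 52 were assembled by the authors and carry an MSTRG identifier, in which the first number is the locus and the second the transcript. The files do not pair these identifiers with gene names, positions or sequences, and none of the 39 known long non-coding RNAs looked up by name was paired with a row of the table. The members are therefore given by identifier, with no role attached, and whether any of them is read from the Dlk1-Dio3 domain was not tested.

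The left-out rows were set apart with earlier results of these data known, so their levels are no check of the genotype labels. Their summed level was 1.46 FPKM in HOMO, 9.31 FPKM in MKI, 156 FPKM in PKI and 268 FPKM in WT. HOMO thus held 0.547%, MKI 3.48% and PKI 58.2% of the WT level. The MKI column stood apart from the other columns across the table. Over the 6181 rows, which are not independent, Pearson's r of log2 levels was 0.595 between HOMO and MKI, 0.581 between MKI and PKI and 0.590 between MKI and WT, against 0.723 to 0.793 among HOMO, PKI and WT. Rows above 0 numbered 15597 in HOMO, 14368 in MKI, 16745 in PKI and 17188 in WT, and the read depth behind the FPKM values is unknown. Marker genes of 9 embryonic tissues were above 0 in every column, with summed levels in HOMO, MKI, PKI and WT of 690.0, 1057, 206 and 566 FPKM for 7 hepatocyte genes, 3787, 1197, 1647 and 2506 FPKM for 7 erythroid genes and 21.2, 16.3, 53.7 and 23.4 FPKM for 3 epidermal genes. The 4 Y-linked genes summed to 42.3, 73.3 and 47.9 FPKM in HOMO, MKI and PKI and were listed at 0 in WT. MKI against WT, a comparison of the rule, thus sets a column with Y-linked RNA against a column without it. In that pair sex and genotype cannot be told apart, and the same holds for PKI and HOMO against WT. The part of tissue make-up, sex and the MKI library in the values of the members was not tested, and in whole embryos fewer cells of a type and less RNA per cell cannot be told apart.

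The choice of members rests on the 2 maternal differences themselves, so their size is a description and carries no test. Among all 6181 rows, 6.26% were 2-fold lower in MKI than WT, 4.29% were 2-fold lower in HOMO than PKI and 1.57%, or 97 rows, were lower in both, the 81 members and 16 left-out rows. In the opposite direction 0.631%, or 39 rows, were higher in both. Members made up 3.30% of the 878 tested Ensembl rows and 0.981% of the 5303 tested assembled rows. Over the 81 members the median difference was -1.65 in MKI against WT and -1.53 in HOMO against PKI on the log2(FPKM + 0.5) scale, beside 0.23 and -0.09 over all tested rows. For a member listed at 0 the difference depends on the pseudocount, and over the 32 members above 0 in every column the medians were -1.88 and -1.38.

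**Figure D1:**
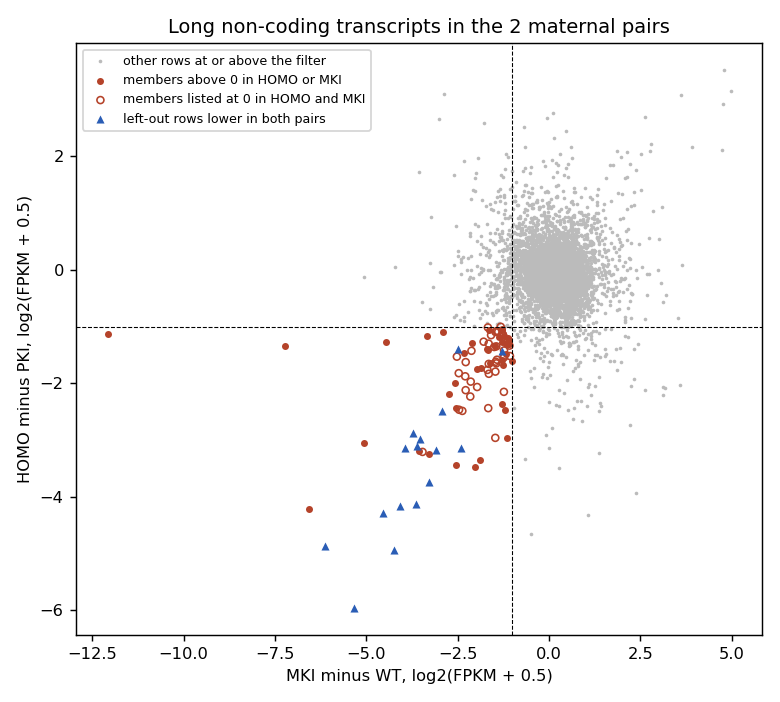
Difference in log2(FPKM + 0.5) between MKI and WT (horizontal axis) and between HOMO and PKI (vertical axis) for the 6181 rows at or above the filter, 1 point per transcript; dashed lines mark 2-fold lower. The 81 members fill the lower left corner by their choice, 40 of them (open circles) listed at 0 in HOMO and MKI, and 1 member lies far to the left at -12.08 in MKI against WT and only -1.14 in HOMO against PKI.

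The rows closest to the threshold show how it cuts. MSTRG.20976.1, just inside, stood at 0 in HOMO, 0.837 FPKM in MKI, 1.03 FPKM in PKI and 2.22 FPKM in WT, a difference of -1.02 in MKI against WT. MSTRG.59456.3 and MSTRG.105257.17, also just inside, were listed at 0 in HOMO and MKI and had 0.503 and 0.511 FPKM in PKI. MSTRG.116727.38, just outside at -1.07 in MKI against WT and -0.999 in HOMO against PKI, had 5.45 FPKM in HOMO, 6.32 FPKM in MKI, 11.4 FPKM in PKI and 13.8 FPKM in WT. MSTRG.52192.10 and MSTRG.89781.10, the next rows outside, differed by -0.993 and -0.992 in HOMO against PKI. Rows on the 2 sides of the threshold thus had nearly the same differences.

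The members ranged from very abundant to scarce, with a mean of PKI and WT from 22239 down to 0.626 FPKM, and most were scarce. In HOMO 10 members, in MKI 6, in PKI 13 and in WT 14 exceeded 10 FPKM, whereas the median member had 0 FPKM in HOMO and in MKI, 1.25 FPKM in PKI and 1.45 FPKM in WT. The lowest was 0.503 FPKM in PKI and 0.549 FPKM in WT, and no member was listed at 0 in either of these columns. In 80 of the 81 members both HOMO and MKI lay below both PKI and WT, a gap of any size that 12.2% of all tested rows also had. The exception was ENSMUST00000187351, which was higher in HOMO than in WT. The rule already places MKI below WT and HOMO below PKI in every member. The 40 members listed at 0 in HOMO and MKI have the gap by construction, so this count follows largely from the choice.

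**Figure D2:**
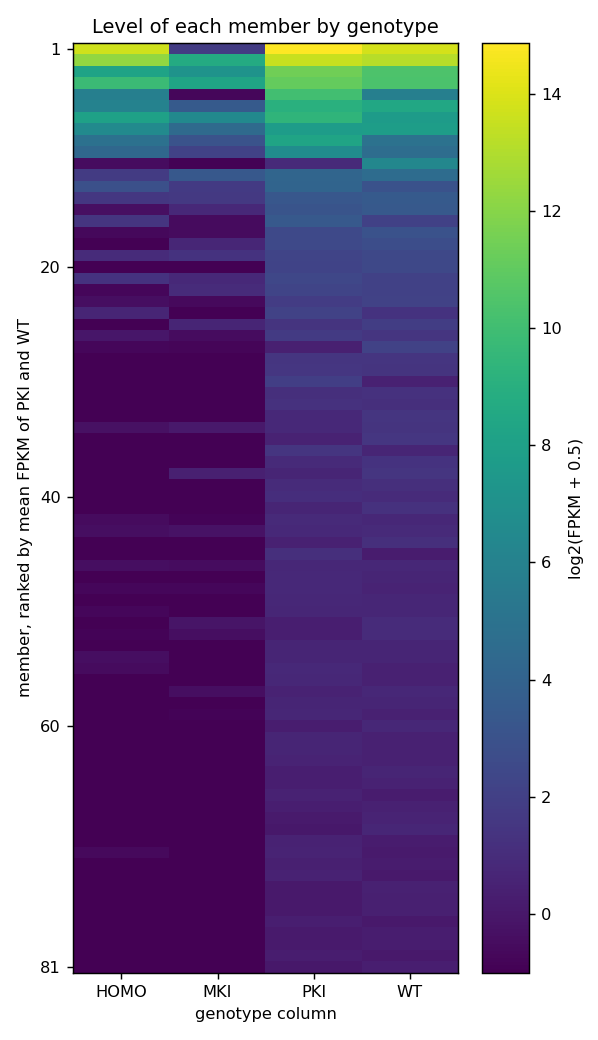
Level of each of the 81 members, as log2(FPKM + 0.5) in colour, in the HOMO, MKI, PKI and WT columns, with members ranked from top to bottom by their mean FPKM in PKI and WT. Most members below rank 20 are at the floor in HOMO and MKI and near 1 FPKM in PKI and WT, while the highest ranks keep a clear level in HOMO.

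In 40 members HOMO and MKI were both listed at 0. In PKI these 40 transcripts ranged from 0.503 to 4.13 FPKM with a median of 0.979 FPKM, and in WT from 0.549 to 5.01 FPKM with a median of 0.958 FPKM. Assembled transcripts made up 33 of them and Ensembl transcripts 7. A row that reaches the filter and is listed at 0 in HOMO and MKI must hold at least 0.5 FPKM in PKI and in WT and so meets the rule by construction, which is why their number is set beside the table as a whole. Of all tested rows 0.663% were listed at 0 in HOMO and MKI, 40 members and 1 left-out row, against 0.194%, or 12 rows, listed at 0 in PKI and WT. Rows listed at 0 in both columns of a paternal state numbered 26 for HOMO and PKI, or 0.421%, and 23 for MKI and WT, or 0.372%. The columns differed in zeros singly as well, with 179 tested rows listed at 0 in HOMO, 222 in MKI, 109 in PKI and 114 in WT. The part of these differences in the shares above was not tested. A further 4 members were listed at 0 in MKI only and 5 in HOMO only. No fold is given for these transcripts, because an FPKM of 0 has no known lower limit without the counts.

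The highest transcript among those listed at 0 was MSTRG.52341.11, with 4.13 FPKM in PKI and 5.01 FPKM in WT. ENSMUST00000173605 had 2.26 FPKM in PKI and 2.25 FPKM in WT, MSTRG.28120.2 had 2.30 and 2.09 FPKM, MSTRG.24198.28 had 1.85 and 1.73 FPKM, and MSTRG.116719.1 had 1.68 and 1.93 FPKM in the same columns. These 5 were named for the largest smaller drop of the pair, which favours transcripts with PKI and WT close together. Over the 40, PKI and WT were less than 2-fold apart in FPKM in 35 and 2-fold or more apart in 5. MSTRG.13802.1 was one of the 5, with 3.40 FPKM in PKI and 0.886 FPKM in WT, and MSTRG.19471.3, with 0.944 and 2.37 FPKM, differed the other way.

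Another group of Ensembl members was low in HOMO and MKI and close to each other in PKI and WT. ENSMUST00000183191 stood at 0.290 FPKM in HOMO, 1.31 FPKM in MKI, 8.08 FPKM in PKI and 10.1 FPKM in WT, differences of -3.44 in HOMO against PKI and -2.55 in MKI against WT. ENSMUST00000182406 stood at 0.129 FPKM in HOMO, 0.185 FPKM in MKI, 5.23 FPKM in PKI and 7.57 FPKM in WT (-3.19 and -3.56). ENSMUST00000183180 had 0.264 FPKM in HOMO, 0.149 FPKM in MKI, 3.00 FPKM in PKI and 3.86 FPKM in WT (-2.20 and -2.75). In all 3 transcripts the HOMO and MKI values together were separated from PKI and WT by more than 2-fold.

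These 3 identifiers have numbers close to those of the left-out Ensembl transcripts. Of the 29 Ensembl members 8, or 27.6%, had a number within 1000 of a left-out Ensembl identifier, compared with 139 of 871 tested Ensembl rows that were not left out, or 16.0%. ENSMUST00000182088, with 1.27 FPKM in PKI and 2.27 FPKM in WT, and ENSMUST00000182737, with 1.04 and 1.93 FPKM, were listed at 0 in HOMO and MKI. ENSMUST00000143272, ENSMUST00000181871 and ENSMUST00000181808 had between 0.890 and 1.35 FPKM in PKI and WT and at most 0.196 FPKM in HOMO and MKI. Closeness of identifier numbers was looked at after the values were seen, and it does not give a position in the genome.

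The 8 members with the highest mean level in PKI and WT, a cut by rank in a continuous range, are described apart from the rest. Together they summed to 20083 FPKM in HOMO, 984 FPKM in MKI, 49035 FPKM in PKI and 27554 FPKM in WT, or 51.9%, 6.32%, 73.8% and 59.9% of the summed FPKM of the whole long non-coding table. In all 8 the deposited value was lowest in MKI. The rule lets only HOMO or MKI be lowest, and the share of tested rows lowest in MKI was not counted. Under quantile normalization ENSMUST00000157463 and ENSMUST00000187351 were higher in MKI than WT, and ENSMUST00000192833 did not differ. In the deposited values HOMO was 2-fold or more above MKI in each of the 8, beside 4.85% of all tested rows. PKI was above WT in 7 of the 8, in 44 of all 81 members and in 35.0% of tested rows. The order PKI, WT, HOMO and MKI from high to low was found in 6 of the 8, in 19 of the 81 and in 2.88% of tested rows, and the rule itself allows only orders with PKI above HOMO and WT above MKI. Under quantile normalization 5 of the 8 no longer met the rule: MSTRG.23398.6, ENSMUST00000192833, ENSMUST00000157463, ENSMUST00000187351 and ENSMUST00000090779. Under TMM scaling, which aligns columns by a trimmed mean of log ratios, 1 did not, MSTRG.23398.6, at -0.995 in HOMO against PKI. The other 73 members together summed to 71.0 FPKM in HOMO, 39.0 FPKM in MKI, 577 FPKM in PKI and 300.5 FPKM in WT.

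MSTRG.23398.6 was the most abundant long non-coding transcript in HOMO, PKI and WT. It stood at 13466 FPKM in HOMO, 2.92 FPKM in MKI, 29660.3 FPKM in PKI and 14818 FPKM in WT. Only MKI was thus far below the rest, by -12.08 against WT, while HOMO lay close to WT (-0.14) and met the rule because PKI was higher still. ENSMUST00000192833 stood at 4947 FPKM in HOMO, 414 FPKM in MKI, 11940.1 FPKM in PKI and 9187 FPKM in WT, with differences of -4.47 in MKI against WT and -1.27 in HOMO against PKI. ENSMUST00000157463 stood at 888 FPKM in HOMO, 303 FPKM in MKI, 2164 FPKM in PKI and 1314 FPKM in WT (-2.12 and -1.28). In both the HOMO value lay between MKI and WT.

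ENSMUST00000152754 had 56.9 FPKM in HOMO, 0.110 FPKM in MKI, 1060.5 FPKM in PKI and 57.6 FPKM in WT. Here HOMO lay at the WT level (-0.02 on the log2 scale), MKI far below it (-6.57) and PKI above it (4.19). ENSMUST00000187351 had 273 FPKM in HOMO, 90.1 FPKM in MKI, 671 FPKM in PKI and 205 FPKM in WT, and was 0.41 higher in HOMO than WT. ENSMUST00000227553, a little less abundant, had 18.9 FPKM in HOMO, 3.90 FPKM in MKI, 104 FPKM in PKI and 25.1 FPKM in WT. In these 3 transcripts the difference between HOMO and PKI came with a high PKI value more than with a HOMO value below WT.

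For MSTRG.23413.2, MSTRG.41193.2 and ENSMUST00000090779 both columns with a maternal insertion were 2-fold or more below WT. MSTRG.23413.2 stood at 293 FPKM in HOMO, 141 FPKM in MKI, 2785 FPKM in PKI and 1372 FPKM in WT, a difference of -3.25 in HOMO against PKI and -3.28 in MKI against WT. MSTRG.41193.2 stood at 64.1 FPKM in HOMO, 10.6 FPKM in MKI, 538 FPKM in PKI and 370.2 FPKM in WT (-3.06 and -5.06). ENSMUST00000090779 stood at 95.2 FPKM in HOMO, 22.3 FPKM in MKI, 215 FPKM in PKI and 230.3 FPKM in WT (-1.17 and -3.34). These are the 3 of the 8 most abundant members whose HOMO and MKI values both stood apart from WT and PKI by 2-fold.

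**Figure D3:**
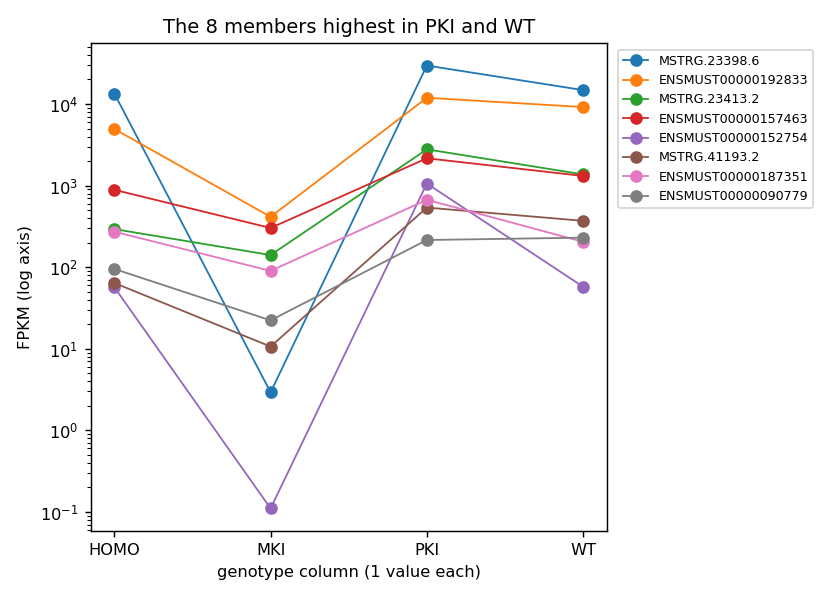
FPKM on a log axis in the HOMO, MKI, PKI and WT columns for the 8 members with the highest mean level in PKI and WT, 1 line per transcript and 1 value per column. All 8 lines of deposited values have their lowest point at MKI. Under quantile normalization ENSMUST00000157463 and ENSMUST00000187351 are higher in MKI than WT, and ENSMUST00000192833 does not differ. MSTRG.23398.6 and ENSMUST00000152754 return in HOMO to about their WT level, 13466 against 14818 FPKM and 56.9 against 57.6 FPKM.

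The pairs that cross the backgrounds were not part of the rule but share its columns, and their values are given as a description. HOMO was 2-fold lower than WT in 68 of the 81 members, beside 5.19% of all tested rows. MKI was 2-fold lower than PKI in 73, beside 5.86%. Of these 73, the 44 members listed at 0 in MKI are lower by the rule and the pseudocount alone. In 60 members all 4 differences were 2-fold or more, which 1.21% of all tested rows met. The 40 members listed at 0 in HOMO and MKI meet all 4 by construction, and of the other 41 members 20 met them. HOMO was 2-fold lower than WT in 3 of the 8 most abundant members and in 20 of the 28 others above 0 in HOMO, while the 45 members listed at 0 in HOMO are 2-fold lower by the rule and the pseudocount alone. The 13 members that were less than 2-fold lower in HOMO than WT included MSTRG.18827.6, with 6.79 FPKM in HOMO, 2.78 FPKM in MKI, 17.1 FPKM in PKI and 7.48 FPKM in WT, and ENSMUST00000228514, with 29.8, 7.79, 307 and 30.4 FPKM in the same order. In both of these HOMO and WT nearly coincided and PKI was high.

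**Figure D4:**
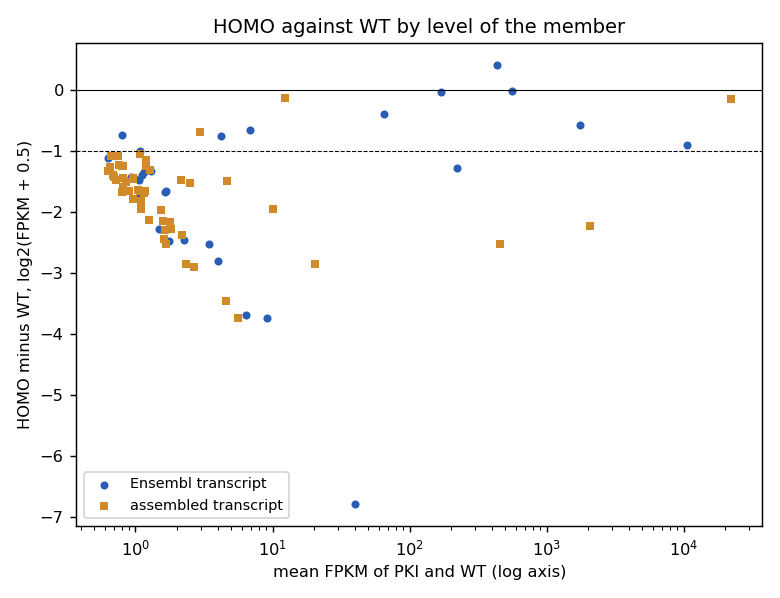
Difference in log2(FPKM + 0.5) between HOMO and WT (vertical axis) against the mean FPKM of PKI and WT (horizontal axis, log scale) for the 81 members, circles for Ensembl and squares for assembled transcripts; the dashed line marks 2-fold lower in HOMO. Of the 8 members farthest to the right, 3 lie below the dashed line and ENSMUST00000187351 lies above 0, at 0.41.

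The paternally inherited insertion was compared in PKI with WT and in HOMO with MKI. All counts here are on the log2 scale of the rule, which understates folds of low transcripts. PKI was within 2-fold of WT in 70 of the 81 members, 2-fold higher in 9 and 2-fold lower in 2. Over all tested rows 3.03% were higher and 3.46% lower, and the median difference over the members was 0.01. In FPKM alone MSTRG.19471.3 was also 2-fold lower, and ENSMUST00000160264 also 2-fold higher, in PKI than WT. HOMO was 2-fold higher than MKI in 13 members and 2-fold lower in 6, beside 4.85% and 12.1%. Both paternal differences were 2-fold or more upward in 8 members, against 0.922% of all tested rows, and downward in none, against 0.955%. Those 8 were MSTRG.23398.6, MSTRG.23413.2, ENSMUST00000152754, ENSMUST00000187351, ENSMUST00000228514, ENSMUST00000227553, MSTRG.18827.6 and ENSMUST00000132294, the last with 2.17 FPKM in HOMO, 0.197 FPKM in MKI, 10.1 FPKM in PKI and 3.67 FPKM in WT. Since members had to be lower in HOMO than PKI and in MKI than WT, a high PKI value made membership easier, and these counts support nothing about the paternal copy.

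The 2 members that were 2-fold lower in PKI than WT on the log2 scale of the rule had WT as their only high column. ENSMUST00000127786 stood at 0.222 FPKM in HOMO, 0.0283 FPKM in MKI, 1.34 FPKM in PKI and 79.1 FPKM in WT, with a difference of -5.44 between PKI and WT on the log2 scale and of -1.35 between HOMO and PKI. MSTRG.116860.75 stood at 0.106 FPKM in HOMO, 0.0854 FPKM in MKI, 0.797 FPKM in PKI and 3.85 FPKM in WT. In both transcripts all 3 columns with an insertion were low, and these are also the columns with Y-linked RNA. Among the members lower in HOMO than MKI were MSTRG.84464.2, listed at 0 in HOMO with 1.13 FPKM in MKI, 5.08 FPKM in PKI and 6.13 FPKM in WT, and ENSMUST00000145859, with 0.110, 1.40, 4.29 and 3.74 FPKM in HOMO, MKI, PKI and WT.

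The 52 assembled members come from 50 loci, most of which hold other transcripts as well. A locus here is every row of the long non-coding table with the same first number, so transcripts that the authors placed in other tables are not included. The members were the only row in 15 loci, and 35 loci held 126 other transcripts, between 1 and 17 per locus. An other transcript is a row that did not meet the rule, so few such sums could be lower in both pairs, and none of the 35 was. In MKI against WT the difference in their sum was above 0 in 26 loci and below in 7, with 11 loci 2-fold higher and 1 lower and a median of 0.68. In HOMO against PKI it was above in 18 and below in 15, with 3 loci 2-fold higher and 3 lower and a median of 0.04. Over all tested rows, taken singly, the medians were 0.23 in MKI against WT and -0.09 in HOMO against PKI. The table as a whole thus leaned upward in MKI. Members were picked for low values and the other transcripts were not, so a contrast between them follows in part from the choice and was not tested.

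With members and other transcripts added together, 6 of the 35 loci were 2-fold lower in both pairs and 29 were not. The median difference of the summed locus was -0.12 in MKI against WT and -0.46 in HOMO against PKI. The 6 were MSTRG.23398, MSTRG.23413, MSTRG.84453, MSTRG.84464, MSTRG.95017 and MSTRG.116727. When the highest transcript stood for the locus in place of the sum, 10 loci were lower in both pairs. In the other 29 loci the member was lower in both pairs while the sum over the locus was not.

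**Figure D5:**
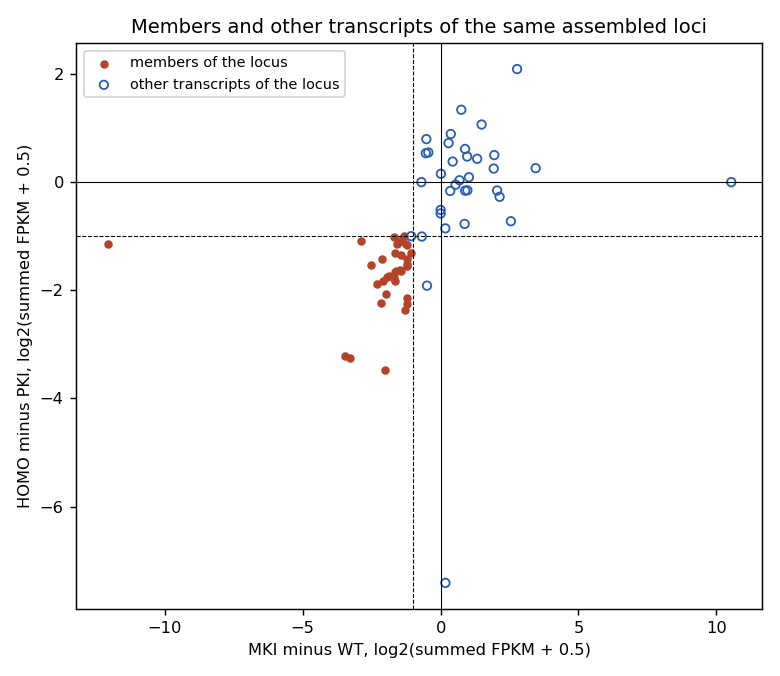
Difference in log2(summed FPKM + 0.5) between MKI and WT (horizontal axis) and between HOMO and PKI (vertical axis) for 35 assembled loci that hold at least 1 member and 1 other transcript; filled circles are the summed members and open circles the summed other transcripts of the same locus. The members lie in the lower left corner by their choice, and the open circles are sums of rows that did not meet the rule, so their place outside it follows in large part from the choice as well. In MKI against WT the open circles are above 0 in 26 loci and below in 7, beside a median of 0.23 over all tested rows.

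Loci MSTRG.52341, MSTRG.106933 and MSTRG.23398 were picked with their values known. In each the sum of the other transcripts was higher in MKI than WT, whereas in 7 of the 35 loci it was lower. In locus MSTRG.52341 the member was listed at 0 in HOMO and MKI, but the 7 other transcripts summed to 10.5 FPKM in HOMO, 28.6 FPKM in MKI, 10.9 FPKM in PKI and 19.5 FPKM in WT. In locus MSTRG.106933 the member had 2.46, 2.64, 9.34 and 10.9 FPKM in HOMO, MKI, PKI and WT, and the 7 others summed to 4.25, 18.0, 3.47 and 1.20 FPKM. In both loci the other transcripts were highest in MKI, where the member was low. In locus MSTRG.23398, the locus of the most abundant member, the single other transcript had 745 FPKM in MKI and was listed at 0 in the other columns, so that the locus summed to 748 FPKM in MKI against 14818 FPKM in WT. That leaves the locus -4.31 below WT in MKI, compared with -12.08 for the member alone. The sum of this locus was thus still lower in both pairs.

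Locus MSTRG.116727 held 3 transcripts, 2 of them members, and all were lower in both columns with a maternal insertion. MSTRG.116727.24 stood at 2.81 FPKM in HOMO, 9.77 FPKM in MKI, 17.8 FPKM in PKI and 23.4 FPKM in WT, and MSTRG.116727.26 at 1.46, 1.99, 4.36 and 4.97 FPKM in the same order. The third transcript is the row just outside the threshold given above, and the locus summed to 9.73 FPKM in HOMO, 18.1 FPKM in MKI, 33.6 FPKM in PKI and 42.1 FPKM in WT. Locus MSTRG.83496 also held 2 members. MSTRG.83496.1 had 0.0526 FPKM in HOMO, 0.245 FPKM in MKI, 0.755 FPKM in PKI and 1.43 FPKM in WT, and MSTRG.83496.3 was listed at 0 in HOMO and MKI with 0.703 FPKM in PKI and 1.23 FPKM in WT. Its other transcript had 1.57 FPKM in MKI and was listed at 0 in WT, so locus MSTRG.83496 was not 2-fold lower in MKI as a whole (-0.45).

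The mRNA table was searched for the pattern of the members, the median over the 81 of log2 levels centred on the mean of each row, which was -0.76 in HOMO, -0.85 in MKI, 0.83 in PKI and 0.80 in WT. Likeness was the Euclidean distance over these 4 columns, and 13284 of 29639 rows at 1 FPKM or more in at least 2 columns were ranked. The 5 closest were all genes newly assembled by the authors, at distances from 0.0881 to 0.328, and carry no symbol. The closest, newGene_32437, was listed at 0 in HOMO and MKI and had 1.09 FPKM in PKI and 1.11 FPKM in WT. The next, newGene_25704, had 6.11 FPKM in HOMO, 5.59 FPKM in MKI, 19.3 FPKM in PKI and 16.1 FPKM in WT.

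The rule of the members, applied to those 13284 rows, was met by 61, or 0.459%, of which 24 were newly assembled and without a symbol. Histone genes, whose products package DNA and most of whose transcripts end in a stem-loop in place of a poly(A) tail, made up 9 of the 61, of 67 tested. Their order of columns was PKI, WT, HOMO and MKI from high to low in 8 of the 9. The same order was found in 20 of the 28 other genes with a symbol among the 61, and in 39 of the 61 as a whole. The rule that picked the 61 allows only orders with PKI above HOMO and WT above MKI. The share of this order over all 13284 rows was not counted, so these counts have no base to be set against. Hist1h2af, encoding a core histone of the H2A type, had 302 FPKM in HOMO, 19.7 FPKM in MKI, 723 FPKM in PKI and 440.2 FPKM in WT. Hist1h1c, encoding a linker histone, had 198 FPKM in HOMO, 33.5 FPKM in MKI, 481 FPKM in PKI and 348 FPKM in WT. These genes were picked out with their values known. Reads of near-identical histone genes can be divided between copies in more than 1 way, so the levels of single copies are uncertain. The part of poly(A) selection in the abundant members was not tested.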

How the data were processed

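RNA of whole embryos was selected with oligo(dT) beads and sequenced as paired ends from dUTP-marked libraries, per the labels' protocols. cutadapt 1.9, HISAT2 2.0.4 and StringTie 1.3.4d on GRCm38 are named in the submitters' processing notes. The headers name no unit; FPKM is inferred for the deposited values, since StringTie writes it and the columns hold fractions with unequal sums. The sources used here state neither the annotation release nor whether a column joins several libraries. With transcript-level FPKM, fragments shared by overlapping transcripts are divided by the quantifier, and short transcripts can take very high values.

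Members were found with Python 3.11.15 and pandas 2.3.3 on log2(FPKM + 0.5), which understates folds of low transcripts. The filter was 0.5 FPKM in at least 2 columns (1 FPKM for mRNA). With 1 column per genotype no test was possible, and differences are described by values, medians and counts past 2-fold, set beside the share of all tested rows. The members and lists were chosen with earlier results of these data known. Named in full were the 12 members with the largest smaller drop of the 2 pairs, the 8 highest in PKI and WT, those listed at 0 among the 20 highest, and loci with several members, 21 in all. Further members were picked as examples with their values known. Of the 39 long non-coding names looked up, 1 was in the mRNA table (Snhg11, 6.03, 6.23, 3.75 and 6.24 FPKM in HOMO, MKI, PKI and WT). Marker sums in HOMO, MKI, PKI and WT were 54.4, 46.1, 29.8 and 47.4 FPKM for endothelium, 385, 374, 280.2 and 448 FPKM for neurons, 49.9, 55.9, 48.6 and 66.4 FPKM for neural progenitors, 59.7, 46.0, 46.5 and 65.0 FPKM for skeletal muscle, 37.8, 31.3, 72.4 and 53.7 FPKM for heart, and 91.4, 54.2, 48.6 and 98.0 FPKM for cartilage. Alternatives were pseudocounts of 0.1 and 1, no filter, a filter of 2 FPKM, quantile normalization, and TMM scaling (an unweighted trimmed mean of log ratios to WT). The rule and both scalings were run on simulated data that held no values of 0, so that check does not cover the members listed at 0. The microRNA table was not used here.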

Additional observations from a re-analysis of the deposited data

How the results depend on the processing

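The number of members depended on the pseudocount and the filter: 140 rows were lower in both pairs with a pseudocount of 0.1 (all 81 members and 59 others), 36 with a pseudocount of 1 and 27 with a filter of 2 FPKM, all of them members. Without a filter it was again 81, since the rule itself needs 0.5 FPKM in PKI and WT. Quantile normalization gave 73, all members, and TMM scaling 83, 79 of them members. The count of all rows lower in MKI than WT was 639, 183, 702 and 101 with pseudocounts of 0.1 and 1, no filter and the 2 FPKM filter, and that in HOMO than PKI 608, 133, 505 and 75. The members' median in MKI against WT was -3.28 and -1.06 with pseudocounts of 0.1 and 1 and -1.47 under quantile normalization, and in HOMO against PKI -3.11, -1.06 and, under TMM, -1.65. Their median in PKI against WT was 0.042 under quantile normalization and 0.15 under TMM. Of loci with other transcripts, 10 in place of 6 were lower in both pairs by their highest transcript. Among named members 3 values changed sign under quantile normalization, which redistributes the top ranks and set 4 other values to 0 (both pairs for ENSMUST00000192833, HOMO against PKI for MSTRG.23398.6 and ENSMUST00000187351): ENSMUST00000157463 to 1.04 and ENSMUST00000187351 to 0.31 in MKI against WT, and ENSMUST00000090779 to 0.78 in HOMO against PKI. Chosen after seeing the data, a demand that all 4 crossed pairs be 2-fold lower left 60 members, and a gap of any size 80. No paired analysis was possible because each table has 1 column per genotype without a replicate number, and for the same reason no replicate could be left out. The depth behind the values is unknown, so a transcript listed at 0 may be present below detection.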
